A study of Mus musculus with 10 samples.

Results

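The genes described here are 42 members of the Fanconi, homologous recombination and damage checkpoint machinery, chosen by symbol from a list written by hand and found, all 42 of them, among the 26146 genes of a count table from mouse hematopoietic stem cells (HSCs). The series asks how gene expression in HSCs differs when *Cited2*, a transcriptional coregulator, is deleted. HSCs were bulk-sorted as LSK (Lin-Sca1+Kit+) CD48-CD150+ cells, polyA RNA was sequenced, and 1 library was made per mouse from 5 mice of each genotype. The WT libraries, called *wildtype* in the labels, come from *Cited2* fl/fl mice without Cre, and the KO libraries come from *Cited2* fl/fl;*Vav-iCre* mice. Both genotypes are on a C57BL/6J background, are 8 to 12 weeks old and carry the floxed alleles, so WT is not an unmodified *Cited2* locus. *Vav-iCre* acts from fetal life across all blood lineages and not in HSCs alone, and no group of mice with Cre and without floxed alleles was analysed here.

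The Fanconi anemia pathway repairs crosslinks between the strands of DNA. A core complex of proteins attaches ubiquitin to the pair FANCD2 and FANCI, which then brings nucleases and homologous recombination to the lesion. Recombination, in which the BRCA proteins take part, copies the intact sister strand, whereas end joining seals breaks without a template. The ATM and ATR kinases signal the damage and halt the cell cycle. Inherited loss of Fanconi genes causes bone marrow failure with exhaustion of HSCs, which is why this machinery is examined in these cells.

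Library totals ranged from 3058690 to 4548795 deposited counts, and the 42 genes took 9132 to 15520 counts of a library, or 0.299% to 0.347%. *Cited2*, the deleted gene (GRCm38, chr10:17723218-17725674), was measured in WT libraries 1 to 5 at 101.3, 171.0, 162.0, 221.6 and 160.2 CPM (counts scaled by the normalized library total), and in KO libraries 1 to 5 at 3.80, 4.21, 120.1, 5.00 and 8.30 CPM. The library labelled KO3 thus lay inside the WT range, whereas the other 4 KO libraries lay far below it. *Cited2* had a log2 fold change of -2.51 with all 10 libraries (SE 0.94, adjusted p = 0.328, edgeR's quasi-likelihood test), and it was -4.92 without KO3 (adjusted p = 1.82e-06). The library labelled KO2 held both *Xist* (1307 CPM) and Y-linked transcripts (329.3 CPM), which no other library did at such levels. That KO2 comes from 1 mouse and that *Cited2* is deleted in KO3 were taken as described and were not tested. The counts of members called and at an unadjusted p under 0.05, and each member at that level, are therefore also given without KO2 and without KO3. Summed HSC markers, such as *Hlf*, *Mecom* and *Kit*, were abundant in all 10 libraries (2042 to 2627 CPM), and the 5 T cell markers summed to 3.23 to 12.3 CPM. The 8 granulocyte and monocyte markers summed to 278.6 to 692.5 CPM, with *Mpo* at 189.7 CPM in WT5 and 108.3 CPM in KO5 and at most 19.99 CPM in the other libraries. The 5 B cell markers summed to 47.9 to 81.8 CPM, most of it *Cd79b*. Of the marker lists for other blood and stromal cells, only *Cd48*, the surface protein that the gate leaves out, passed the test (log2 fold change 1.19, adjusted p = 0.0264, edgeR). It was at 1.26 without KO3 (adjusted p = 0.0156) and at 1.21 without KO2 (adjusted p = 0.0681), which misses the threshold. In bulk RNA, fewer cells of a type and less RNA per cell cannot be told apart.

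All 42 genes passed the filter on low counts, and none was called between the genotypes. A call required an adjusted p under 0.05 over all 14165 tested genes and a fold change above 1.2 in edgeR's quasi-likelihood test, and 32 genes of the table, 0.226%, met it. The smallest adjusted p of the 42 was 0.291, for *Xrcc3*. At an unadjusted p under 0.05 there were 5 members, or 11.9%, against 12.9% of all tested genes. Of these, *Xrcc5*, *Fanci* and *Fancc* were higher in KO libraries, where 5.8% of all genes lay, and *Xrcc3* and *Fance* were lower, where 7.08% lay. These shares are near the background. DESeq2's Wald test also called 0 of the 42 and had the same 5 members (11.9%) at an unadjusted p under 0.05, where 341 of 25001 genes (1.36%) were called and 9.06% lay at that level. Without KO3 the count was again 0 called and the same 5 at that level, where 42 of 14372 genes were called and 11.4% lay at that level. Without KO2 it was 0 called and 2, *Xrcc3* and *Fancc*, where 8 of 14416 genes were called and 10.4% lay at that level.

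The data also bound how large a difference between the labelled groups could have been, with KO2 and KO3 included. The 95% interval of the fold change lay within 1.5-fold in both directions for 28 members (66.67%, against 50.99% of all tested genes). It lay within 2-fold for 40 members (95.24%, against 71.98%). The exceptions to the 2-fold bound were *Rad51c* and *Lig4*, the members with the fewest counts. Point estimates were higher in KO for 27 members (64.29%, against 51.05% of all tested genes) and lower for 15. The median log2 fold change was 0.06 (0.01 over all tested genes). That split depended on the scaling. When GC content and length of the genes entered as an offset, 19 were higher and 23 lower, and the median was -0.01. Without KO3 it was 23 against 19, and without KO2 it was 26 against 16. The median absolute log2 fold change of the members, 0.17, was also 0.17 over all tested genes.

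**Figure D1:**
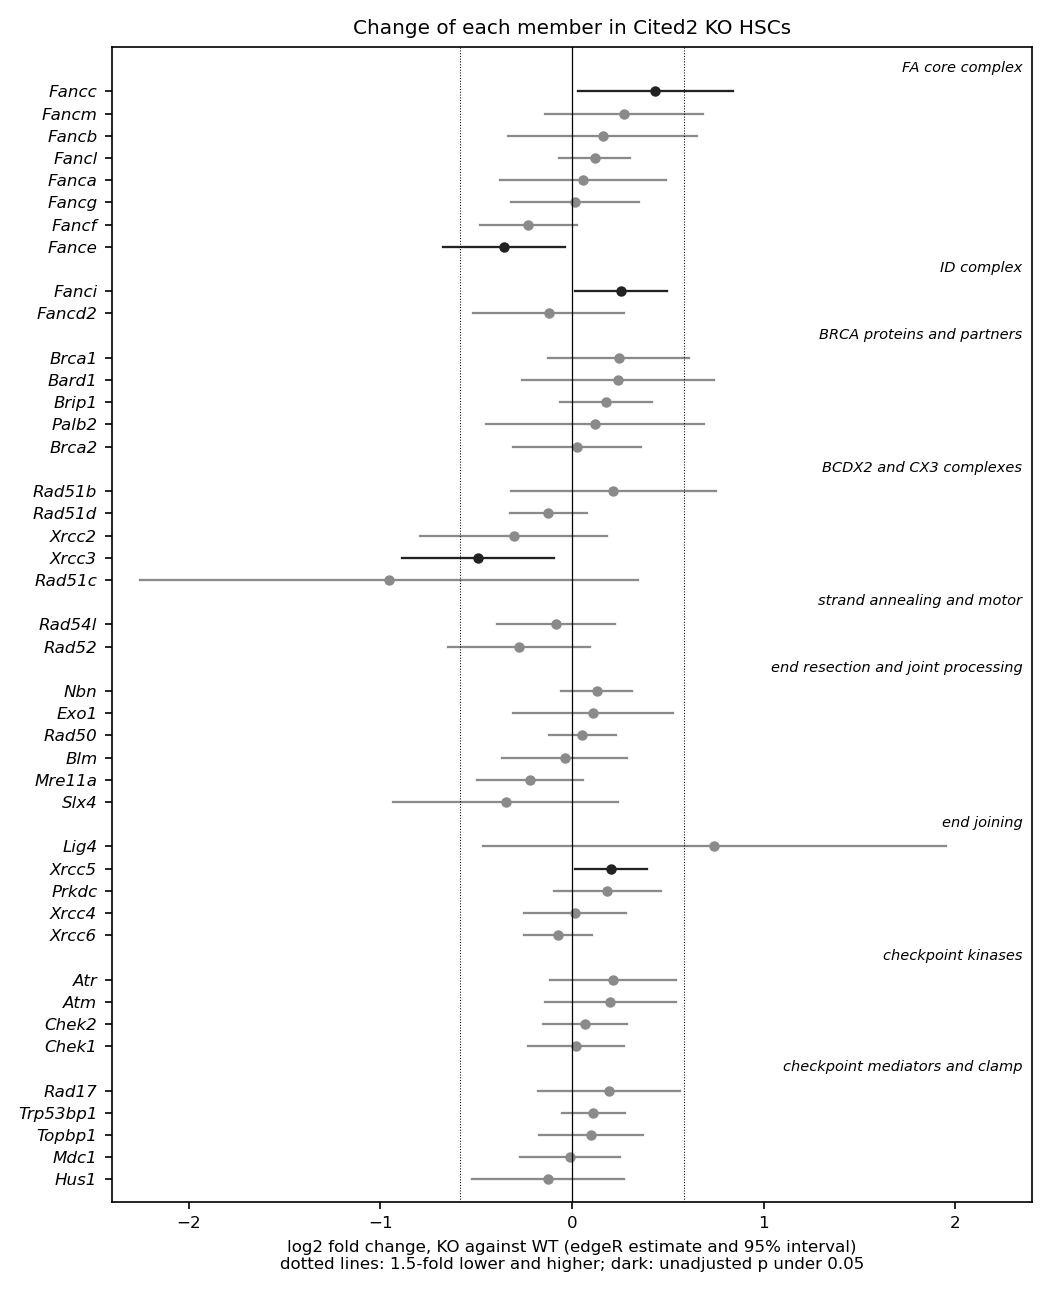
Log2 fold change of each of the 42 genes, KO against WT, with points for the edgeR estimate and bars for its 95% interval, grouped by role. Dark points mark the 5 genes at an unadjusted p under 0.05, dotted lines mark 1.5-fold, and the widest intervals belong to *Rad51c* and *Lig4*.

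Promoters are shown for 4 of these 5 genes, so that the sequence before the RefSeq start of the members with the smallest p-values can be seen. That of *Fanci* is left out because its window crosses exons of other annotated *Fanci* transcripts. Each line gives the 150 bases before the RefSeq start on the gene's strand (GRCm38.p6), with capitals for a matched motif. *Xrcc3* lies at chr12:111813880-111814029 on the minus strand, *Fance* at chr17:28313380-28313529 on the plus strand, *Xrcc5* at chr1:72307271-72307420 on the plus strand and *Fancc* at chr13:63431746-63431895 on the minus strand. The window of *Fancc* lies inside the span that GENCODE gives the gene, since 1 annotated transcript begins further upstream.
Xrcc3: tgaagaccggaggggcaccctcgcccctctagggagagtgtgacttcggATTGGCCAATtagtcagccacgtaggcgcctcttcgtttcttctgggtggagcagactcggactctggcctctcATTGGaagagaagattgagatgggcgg
Fance: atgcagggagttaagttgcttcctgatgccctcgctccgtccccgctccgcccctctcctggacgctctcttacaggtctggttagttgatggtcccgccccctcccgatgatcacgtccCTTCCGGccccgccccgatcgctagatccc
Xrcc5: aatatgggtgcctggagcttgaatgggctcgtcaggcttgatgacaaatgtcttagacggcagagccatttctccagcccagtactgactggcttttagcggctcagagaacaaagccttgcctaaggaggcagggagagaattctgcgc
Fancc: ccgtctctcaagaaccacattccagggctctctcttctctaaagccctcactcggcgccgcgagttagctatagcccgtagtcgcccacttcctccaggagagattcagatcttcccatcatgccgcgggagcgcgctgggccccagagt
Capitals in *Xrcc3* are CCAAT boxes that begin 101, 96 and 27 bases before the start, and the first and second of them adjoin as an inverted pair. In *Fance* they mark an ETS motif, CCGGAAG read on the other strand, that begins 30 bases before the start. The printed windows of *Xrcc5* and *Fancc* held no match, and these genes and *Fance* had a CCAAT box further upstream, within the 250 bases searched. A promoter was found for 35 of the 42 genes, the exceptions being *Fancd2*, *Rad51d*, *Xrcc2*, *Rad50*, *Nbn*, *Exo1* and *Prkdc*, and all letters were searched on both strands of the 250 bases before the start. An E2F motif (TTTGGCGC, TTTCGCGC, TTTCCCGC or TTTGCCGC) was present in 7 of the 35 (20%), namely *Bard1*, *Brca2*, *Chek2*, *Fancg*, *Mdc1*, *Topbp1* and *Xrcc6*, against 3.71% of tested genes and 1.86% of all promoters. E2F factors are known to drive genes of DNA replication and repair at the start of S phase. CCAAT was present in 18 of the 35 (51.4%, against 40.5% of tested genes) and CCGGAAG in 7 (20%, against 14.9%). The median log2 fold change was 0.03 for the members with an E2F motif and 0.11 for those without. A match here describes letters in a window and not binding.

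The FA core complex, which carries the ubiquitin ligase of the pathway, had 8 members, of which 6 had higher and 2 lower point estimates in KO. Without KO5, and likewise without WT4, it was 4 and 4. *Fancc* (GRCm38, chr13:63285043-63497278), a scaffold subunit of the core complex, was measured in WT libraries 1 to 5 at 30.1, 36.1, 35.9, 35.8 and 33.7 CPM and in KO libraries 1 to 5 at 39.9, 36.1, 33.1, 60.6 and 62.7 CPM. KO4 and KO5 were far above every WT library, and the other 3 KO libraries lay at or near the WT range. Its log2 fold change was 0.43 (SE 0.19, unadjusted p = 0.0371, adjusted p = 0.36, edgeR), and it was 0.54 without KO3, 0.51 without KO2, 0.32 without KO4 (unadjusted p = 0.114) and 0.29 without KO5 (unadjusted p = 0.135). *Fance* (chr17:28313519-28326572), which joins the core complex to FANCD2, was measured in WT at 36.5, 41.9, 46.5, 37.8 and 34.8 CPM and in KO at 35.4, 24.2, 33.3, 29.7 and 31.3 CPM. Only KO1 reached into the WT range. *Fance* had a log2 fold change of -0.36 (SE 0.15, unadjusted p = 0.0307, adjusted p = 0.336, edgeR). It was -0.39 without KO3, -0.28 without KO2 (unadjusted p = 0.076) and -0.05 with the GC content and length offset. *Fance* had the highest GC content of the 42 genes, 61.4% in its longest transcript.

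*Fancf* (chr7:51860577-51862267), an adaptor of the core complex, was measured in WT at 45.1, 52.8, 51.5, 49.97 and 48.8 CPM and in KO at 37.3, 41.8, 45.4, 39.7 and 47.7 CPM. The groups overlapped through KO3, KO5 and WT1. Its log2 fold change was -0.23 (SE 0.12, adjusted p = 0.443, edgeR). *Fancl* (chr11:26386135-26471876), the ubiquitin ligase itself, had the highest level of the core complex, 52.2 ± 4.20 CPM per kilobase of gene length in WT (SD, n = 5). It was measured in WT at 97.3, 87.4, 87.3, 87.5 and 103.5 CPM and in KO at 103.6, 103.7, 104.2, 101.1 and 90.1 CPM. KO1 to KO3 lay just above the highest WT library, KO4 within the WT range and KO5 lowest of the KO libraries. That gave a log2 fold change of 0.12 (SE 0.09, adjusted p = 0.617, edgeR). *Fanca*, *Fancb*, *Fancg* and *Fancm*, the translocase that finds the lesion, had log2 fold changes of 0.06, 0.16, 0.02 and 0.27, with adjusted p-values from 0.602 to 0.977 (edgeR).

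The point estimates of the pair that the core complex ubiquitinates lay on opposite sides. *Fanci* (chr7:79391929-79450264) was measured in WT at 48.5, 52.5, 50.6, 55.6 and 43.5 CPM and in KO at 55.6, 67.5, 58.1, 58.5 and 59.9 CPM. It was the only 1 of the 42 genes whose libraries did not overlap between the genotypes, as 3.33% of all tested genes did, and it was so by a narrow margin, since WT4 had 55.57 and KO1 had 55.62 CPM. With WT2 or KO3 left out, for example, the renewed normalization closed that gap. The log2 fold change was 0.26 (SE 0.11, unadjusted p = 0.0366, adjusted p = 0.359, edgeR), and it was 0.27 without KO3 and 0.21 without KO2 (unadjusted p = 0.101). *Fancd2*, its partner, had a log2 fold change of -0.12 (SE 0.18, adjusted p = 0.827, edgeR), with KO3 highest of all libraries at 44.7 CPM and KO5 lowest at 22.8 CPM.

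Among the BRCA proteins and partners, all 5 point estimates were higher in KO, and none had an unadjusted p under 0.05. With the GC content and length offset 3 were higher and 2 lower. Without KO2 it was 4 and 1, as it also was without KO1, KO4, WT1, WT2 or WT3. *Brip1* (chr11:86058138-86201193), a helicase that binds BRCA1, was measured in WT at 63.2, 58.1, 49.4, 60.0 and 70.2 CPM and in KO at 62.8, 66.3, 74.0, 70.9 and 66.8 CPM. The KO libraries lay in the upper part of the WT range or just above it, and the log2 fold change was 0.18 (SE 0.11, adjusted p = 0.542, edgeR). *Brca2* (chr5:150522630-150570329), a mediator of homologous recombination, was the highest of this group per kilobase and was measured in WT at 91.0, 115.9, 147.9, 150.4 and 160.2 CPM and in KO at 106.7, 156.8, 122.2, 167.0 and 127.2 CPM. Its libraries were interleaved across the genotypes, with a log2 fold change of 0.03 (SE 0.16, adjusted p = 0.961, edgeR) whose sign turned with the offset and when any of 4 libraries was left out. *Brca1*, its partner *Bard1* and *Palb2*, the bridge between BRCA1 and BRCA2, had log2 fold changes of 0.24, 0.24 and 0.12. For *Brca1*, KO1 to KO4 lay between 57.0 and 59.9 CPM and KO5 at 37.6 CPM, against 34.1 to 61.3 CPM in WT.

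The BCDX2 and CX3 complexes, which act in homologous recombination and are encoded by *Rad51b*, *Rad51c*, *Rad51d*, *Xrcc2* and *Xrcc3*, were the group with the most point estimates on the lower side, 4 of 5. Under each alternative fit 1 of them, *Rad51b*, was higher and the others were lower, except that *Rad51c* was not tested where at least 10 counts were required in every library. *Xrcc3* (chr12:111803192-111813873) was measured in WT at 45.8, 40.9, 36.8, 27.3 and 33.7 CPM and in KO at 24.0, 20.5, 23.9, 34.4 and 28.3 CPM. KO1, KO2 and KO3 lay below every WT library, and KO4 and KO5 lay within the WT range. For *Xrcc3* the log2 fold change was -0.49 (SE 0.18, unadjusted p = 0.0185, adjusted p = 0.291, edgeR), the smallest p of the 42 genes. It was -0.46 without KO3, -0.42 without KO2 and -0.27 (unadjusted p = 0.161) with the GC content and length offset. *Xrcc2* had a log2 fold change of -0.30, *Rad51d* of -0.12 and *Rad51b* of 0.21, with adjusted p-values from 0.621 to 0.766 (edgeR). *Rad51c* had the lowest estimate of all 42 genes, -0.95 (SE 0.61, adjusted p = 0.544, edgeR), from 3 to 49 counts per library, and its 95% interval ran from 0.21-fold to 1.27-fold. Summed over the 5 genes, the level was 196.8 to 243.5 CPM in WT and 165.8 to 191.5 CPM in KO. The groups did not overlap on that scale, nor after scaling by DESeq2 size factors or by raw library totals. These scalings gave nearly the same values, with WT from 195.7 and 194.4 and KO up to 192.6 and 193.5, so they add no support. The GC content and length offset was not among them, and no share of separate sums over other gene sets is given. This sum was noted after its values were seen and was not tested, and *Rad51d* gave the largest part of it.

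*Rad52*, which anneals single strands, and *Rad54l*, a motor protein of recombination, were both lower by point estimate. *Rad52* (chr6:119902698-119922828) was measured in WT at 55.9, 59.6, 52.6, 55.1 and 49.0 CPM and in KO at 69.2, 39.1, 42.3, 37.3 and 36.6 CPM. KO1 was the highest of all 10 libraries, and the other 4 KO libraries lay below every WT library. Across the 5 KO libraries its log2 fold change was -0.28 (SE 0.17, adjusted p = 0.539, edgeR). Without KO1 it was -0.49, with the smallest adjusted p of the members in that fit, 0.169 (edgeR), which also missed the threshold. *Rad54l* had a log2 fold change of -0.08 (SE 0.14).

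End resection and joint processing, which trims broken ends and resolves recombination intermediates, held 6 members. *Nbn* (chr4:15957925-15992589), the signalling subunit of the MRN complex that senses breaks, was the highest of them per kilobase, 51.1 ± 2.88 CPM per kilobase in WT (SD, n = 5). It was measured in WT at 128.4, 120.2, 135.2, 133.1 and 119.7 CPM and in KO at 140.5, 123.4, 156.0, 126.1 and 149.1 CPM, so that KO1, KO3 and KO5 exceeded every WT library. Its log2 fold change was 0.13 (SE 0.09, adjusted p = 0.565, edgeR). *Mre11a* (chr9:14784654-14837123), the nuclease of the same complex, was measured in WT at 75.2, 82.6, 89.7, 71.2 and 82.7 CPM and in KO at 75.1, 80.2, 78.2, 58.5 and 53.2 CPM. KO4 and KO5 lay below every WT library, the other 3 KO libraries within their range. The log2 fold change was -0.22 (SE 0.13, adjusted p = 0.514, edgeR). *Rad50*, the subunit that bridges the ends, was at 0.05, so the 3 genes of the complex had no common direction. *Exo1*, *Blm* and *Slx4* were at 0.11, -0.04 and -0.35 on the log2 scale. The level of *Exo1*, an exonuclease, ranged from 54.7 to 68.2 CPM in WT and from 41.6 to 92.4 CPM in KO.

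Of the end joining genes, *Xrcc5* and *Xrcc6* encode the Ku proteins that cap broken ends. *Xrcc5* (chr1:72307421-72394952) was measured in WT at 112.4, 134.1, 124.9, 138.2 and 118.6 CPM and in KO at 131.4, 150.9, 135.7, 141.4 and 164.5 CPM. KO2, KO4 and KO5 lay above every WT library. The log2 fold change was 0.20 (SE 0.09, unadjusted p = 0.0352, adjusted p = 0.354, edgeR), 0.23 without KO3, 0.19 without KO2 (unadjusted p = 0.0774) and 0.14 without KO5 (unadjusted p = 0.131). *Xrcc6* (chr15:81987835-82040085) was measured in WT at 171.9, 169.5, 137.9, 167.2 and 163.7 CPM and in KO at 139.5, 152.4, 174.0, 153.5 and 150.7 CPM. WT3 stood apart below the other WT libraries, and the groups overlapped. Its log2 fold change was -0.07 (SE 0.08, adjusted p = 0.758, edgeR), with an interval from 0.84-fold to 1.08-fold. *Prkdc*, the kinase that Ku recruits, and *Xrcc4* were at 0.19 and 0.02. *Lig4*, the ligase, had the highest estimate of the 42 genes, 0.74 (SE 0.56, adjusted p = 0.624, edgeR), with 1.53 to 15.4 CPM in WT and 3.82 to 27.9 CPM in KO.

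The 4 checkpoint kinases had higher point estimates in KO, none at an unadjusted p under 0.05, but with the GC content and length offset 1 was higher and 3 lower, and without KO3 it was 2 and 2. *Chek2* (chr5:110839979-110874145), an effector kinase of ATM, was measured in WT at 96.3, 93.7, 84.96, 86.5 and 89.3 CPM and in KO at 82.0, 84.4, 112.7, 101.7 and 91.0 CPM. KO3 and KO4 were above and KO1 and KO2 below all WT libraries, so the KO libraries were spread more widely around a similar mean. Its log2 fold change was 0.07 (SE 0.10, adjusted p = 0.832, edgeR). *Atm*, *Atr* and *Chek1* were at 0.20, 0.21 and 0.02.

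For the mediators and the clamp that hold these kinases at the lesion, 3 point estimates were higher and 2 lower. *Rad17* (chr13:100617164-100651051), which loads the checkpoint clamp, was measured in WT at 58.9, 104.8, 119.1, 108.7 and 107.9 CPM and in KO at 133.3, 103.9, 140.9, 106.7 and 87.8 CPM. WT1 was far below the other WT libraries. The log2 fold change was 0.19 (SE 0.17, adjusted p = 0.683, edgeR), and it was 0.05 without WT1 and 0.03 with the GC content and length offset. *Trp53bp1*, which favours end joining over resection, *Topbp1*, the activator of ATR, *Mdc1*, a scaffold on damaged chromatin, and *Hus1*, a clamp subunit, were at 0.11, 0.10, -0.01 and -0.13.

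Levels within HSCs were compared per kilobase of gene length. The mean WT level ran from 76.7 CPM per kilobase for *Xrcc6* to 2.14 for *Lig4*, a 35.9-fold range, with a median of 13.8 in WT and 14.1 in KO. After *Xrcc6* came *Fancl* (52.2), *Nbn* (51.1), *Xrcc5* (49.2), *Xrcc4* (45.3) and *Chek2* (40.1), and at the lower end were *Bard1* (2.41) and *Rad51c* (2.25). The end joining genes thus held 3 of the 5 highest places, while *Lig4* of the same path held the last. Of the 41 neighbouring pairs in this order, 40 had WT ranges that overlapped, and only *Xrcc6*, whose lowest WT library had 65.3 CPM per kilobase, was separate from the next gene, whose highest had 58.3. Within complexes the levels were unequal: *Fancl* was at 52.2 and *Fancm* at 5.64 CPM per kilobase, and *Brca2* was at 12.4 and *Bard1* at 2.41.

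**Figure D2:**
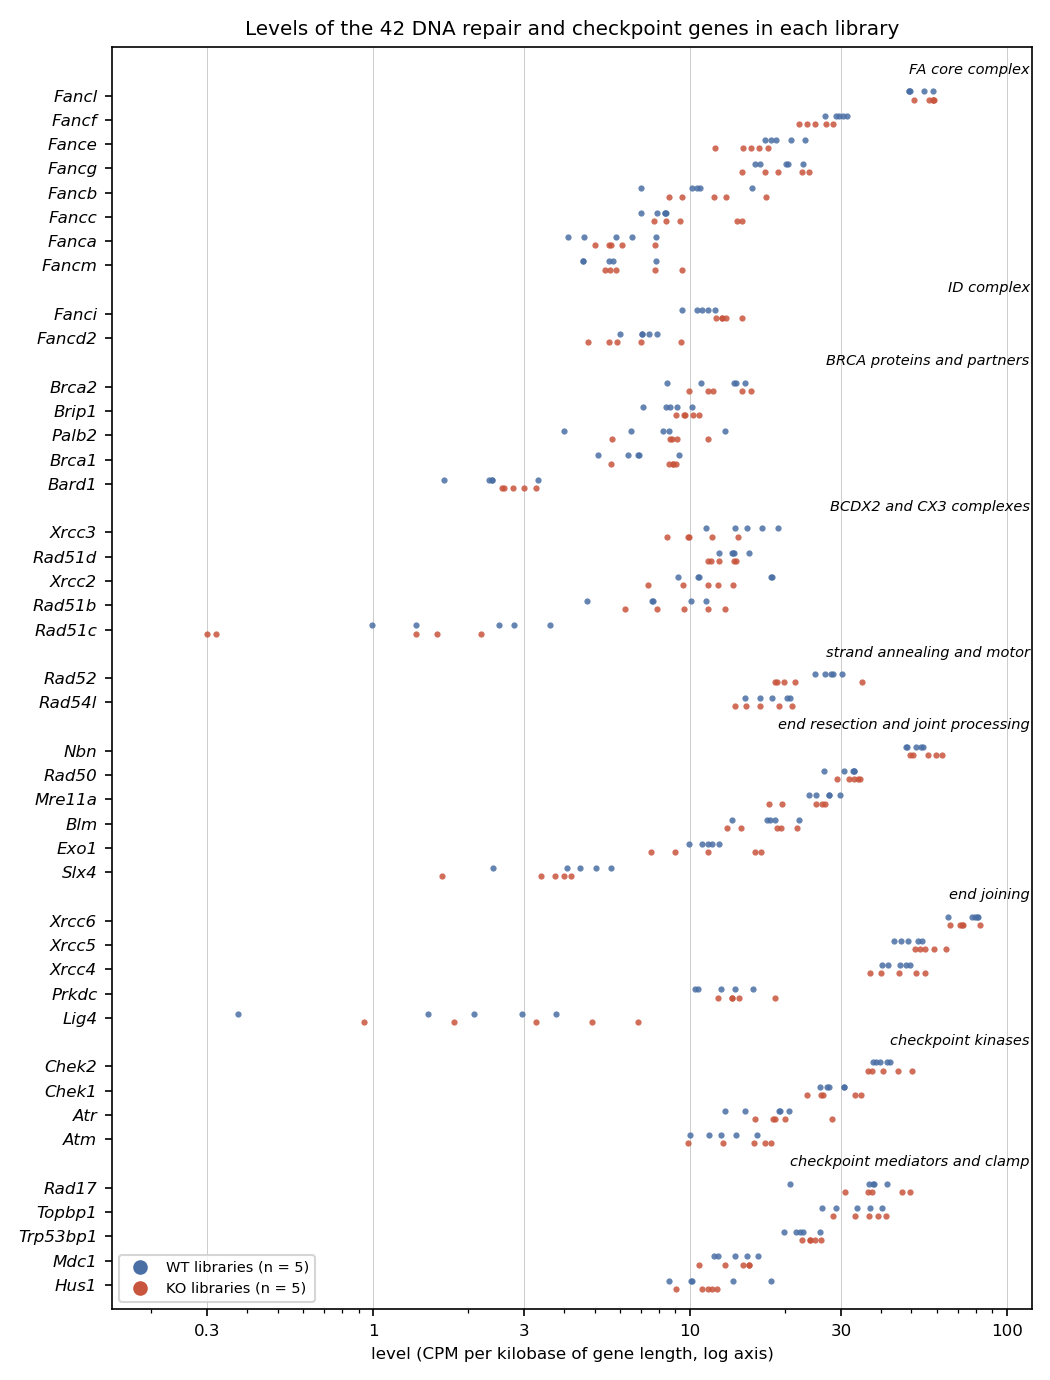
Level of each gene in each library, in CPM per kilobase of gene length on a log axis, with WT libraries in blue and KO libraries in red (n = 5 each), grouped by role. WT and KO points overlap for all genes except *Fanci*, and *Xrcc6* lies highest.

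Between libraries of 1 genotype, the median coefficient of variation of the 42 genes was 14.2% in WT and 17.4% in KO, above the 6.72% that counting alone gives at these depths. It was larger in KO for 24 members. On the log2 scale the SD was larger in KO for 22 members (52.38%), against 58.03% of all tested genes. KO3 held the highest value of 9 genes and KO4 of 7, whereas WT4 held none. The sum over all members was 3054 to 3396 CPM in WT and 3195 to 3502 CPM in KO, highest in KO3. The 20 proliferation markers, such as *Mki67* and *Top2a*, summed to 3580 to 3757 CPM in WT and to 3191, 3818, 4087, 4103 and 3662 CPM in KO1 to KO5. None of these markers was called. At an unadjusted p under 0.05, 4 of the 20 (20%) were higher and 0 lower, against 5.8% and 7.08% of all tested genes. Over the whole list, point estimates were higher in KO for 10 markers and lower for 10, with a median log2 fold change of 0.02. KO3 was thus among the highest for both the members and the proliferation markers. The part of proliferation in the members' levels was not tested.

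**Figure D3:**
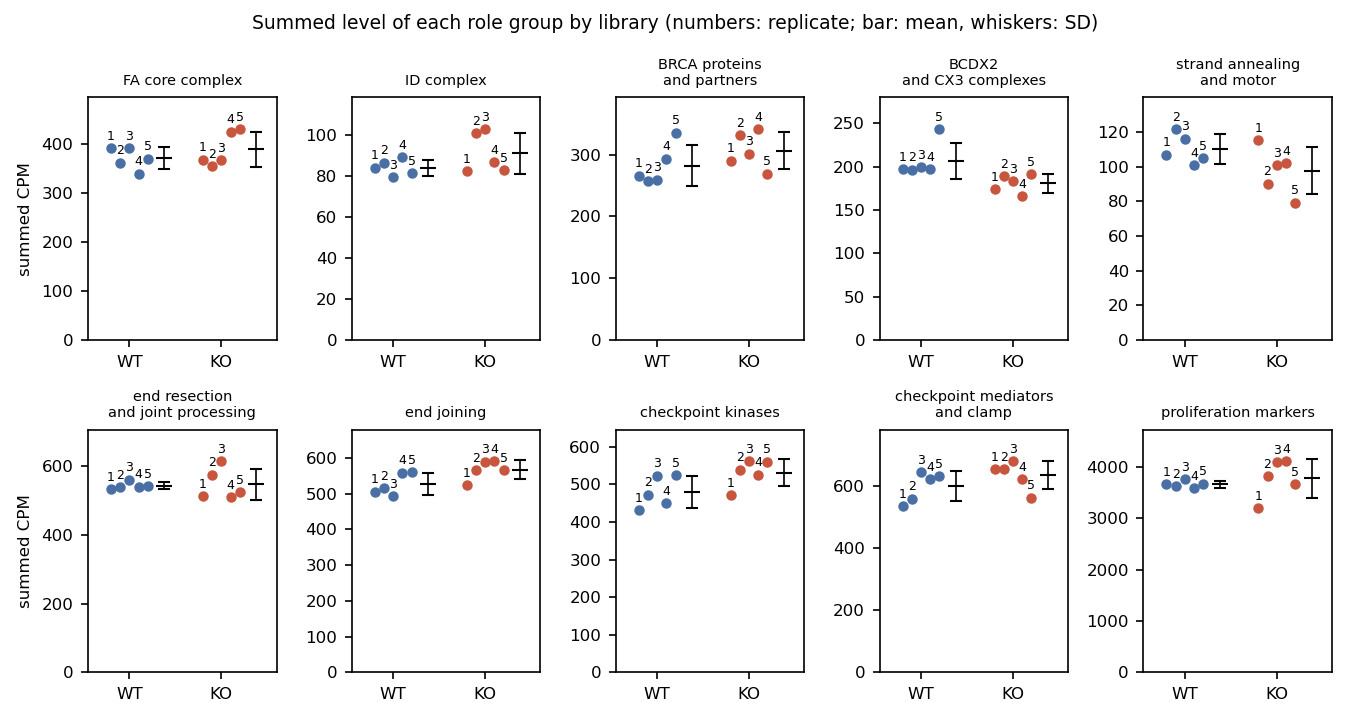
Summed CPM of each role group and of the proliferation markers in each library, from 0, with the replicate number above each point, the bar for the mean and whiskers for the SD (n = 5). The groups are separate for the BCDX2 and CX3 complexes, with WT from 196.8 and KO up to 191.5 CPM, and overlap in every other panel. That separation was noted after the values were seen and was not tested.

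The GC content and length offset moved the members' estimates in both directions. The members' median GC content was 45.9%, against 48.8% over all tested genes, and their median length was 4186 against 2859 bases. *Xrcc3*, *Fance* and *Fancf*, with 56.9%, 61.4% and 57.0% GC, had lower point estimates in KO that moved towards 0 with the offset. *Fanca*, *Fancc* and *Fancg*, with 54.5%, 52.6% and 52.4% GC, had higher point estimates that moved further from 0, to 0.23, 0.56 and 0.12. All of these genes thus moved upward. *Fancl*, *Brip1*, *Brca2* and *Rad17*, with 41.0%, 41.3%, 42.4% and 36.2% GC, moved downward, to -0.03, -0.002, -0.16 and 0.03 with the offset. With it, the members at an unadjusted p under 0.05 were *Fancc* (log2 fold change 0.56), *Rad52* (-0.38) and *Mre11a* (-0.32), the smallest adjusted p being 0.623, and 6.33% of all tested genes lay at that level. The offset can also remove a difference of genotype that follows GC content, and its part in these results was not tested.

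**Figure D4:**
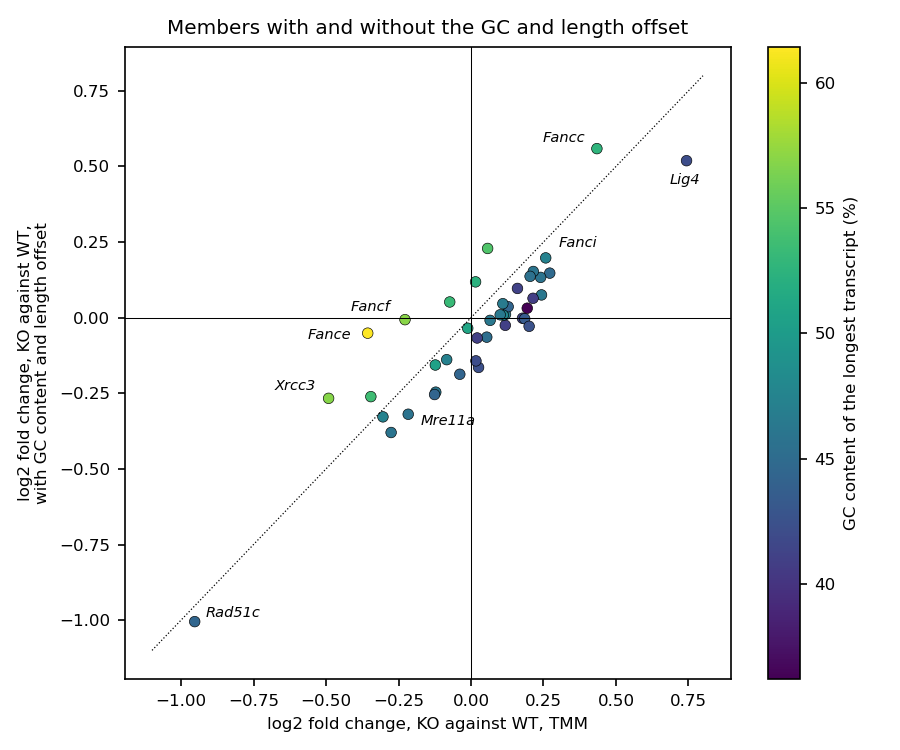
Log2 fold change of the 42 genes, KO against WT, after TMM scaling (horizontal) and with the GC content and length offset (vertical), coloured by GC content of the longest transcript in percent. Points on the dotted line have equal values. *Fance* moves from -0.36 to -0.05 and *Xrcc3* from -0.49 to -0.27, whereas *Fancc* moves from 0.43 to 0.56.

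Exons of 18 members overlap another annotated gene, and for reads counted without strand the reads of such genes cannot be told apart. The setting for strand is not given in the sources used here. *Xrcc3* overlaps *Klc1* (log2 fold change -0.24, adjusted p = 0.379, edgeR), *Fanci* overlaps *Polg* (-0.03), *Fancc* overlaps *2010111I01Rik* (-0.14) and *Fancl* overlaps *Vrk2* (0.20). *Fance*, *Fancf*, *Xrcc6* and *Mre11a* also have such a partner, whereas *Xrcc5*, *Rad52*, *Nbn*, *Brip1* and *Chek2* have none.

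A list of 83 other genes of these pathways was examined with the members. Of them 82 were tested and 0 were called by edgeR, against 0.226% of all tested genes. At an unadjusted p under 0.05, 2 were higher and 4 lower, where 5.8% and 7.08% of all tested genes lay. DESeq2 called *Top3a* (log2 fold change -0.54, adjusted p = 0.0124), 1.2% of the 83, near its share of 1.36% over all genes. The smallest p-values on the lower side belonged to *Top3a*, the topoisomerase that works with BLM (log2 fold change -0.54, adjusted p = 0.0994), *Poll*, a polymerase of end joining (-0.58, adjusted p = 0.168), and *Tonsl*, a factor of fork repair (-0.50, adjusted p = 0.363). *Top3a* was at 43.2 ± 2.87 CPM in WT and 29.8 ± 2.64 CPM in KO (SD, n = 5). On the higher side they belonged to *Rif1*, which protects ends from resection (0.21, adjusted p = 0.326), and to *Rmi2* (0.38, adjusted p = 0.379) and *Rmi1* (0.26, adjusted p = 0.413), which bind BLM and TOP3A. The point estimates of *Rmi1* and *Rmi2* thus lay on the other side from *Top3a*, and that of *Blm* was -0.04.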

How the data were processed

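RNA was measured in bulk-sorted LSK CD48-CD150+ HSCs of 5 WT and 5 KO mice. Single-ended reads were aligned by the authors to GRCm38 (HISAT2 v2.1.0), assigned to genes with Rsubread v2.0.1 and deposited as raw counts per gene symbol with gene lengths. The annotation and the handling of strand, duplicates and reads with several matches are not given in the sources used here. Samples were grouped by their labels, and p-values measure the spread between the 5 libraries of each label, KO2 and KO3 included. *Xist* was at 1316 and 1250 CPM in WT2 and WT4 and at 1307 and 1299 CPM in KO2 and KO3. It was at most 19.73 CPM in the other libraries, so each label held libraries with and without high *Xist*.

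The deposited counts were fitted with edgeR 4.0.16 in R 4.3.3 (filterByExpr, TMM, robust quasi-likelihood F test, genotype only, Benjamini-Hochberg over all 14165 tested genes), and a call needed an adjusted p under 0.05 and a fold change above 1.2. CPM used TMM library sizes, and SDs of log2 CPM a pseudocount of 1. The common biological coefficient of variation was 25.3%. Totals of 3058690 to 4548795 counts per library are 1 limit on how precisely weakly expressed genes are measured.

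Alternatives were DESeq2 1.42.0 (Wald test), its size factors, no filter, at least 10 counts in every library, limma-voom (limma 3.58.1), the replicate block, a loess offset for GC content and length (span 50%), both together, each library left out, an adjusted p of 0.1 and no minimum fold change. *Xist* as a covariate and other scalings of the summed BCDX2 and CX3 genes were added after the data were seen.

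The members, their roles and the other lists were chosen with earlier results of these data known. Full values are given for *Cited2*, for any member called or without overlap, for the 4 members with the smallest p in each direction and for the member with the highest level per kilobase in each role, and of the other pathway genes the 3 with the smallest p in each direction are named. Members described in full beyond this rule, such as *Brca1* and *Exo1*, were chosen after their values were seen. Positions come from GENCODE M21, promoters from RefSeq (GRCm38.p6). Scripts were tested on simulated data. Some items are not reported here.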

Additional observations from a re-analysis of the deposited data

Results flagged for a closer look

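In 6 of the 88 groups of 5 libraries examined (each member, *Cited2* and the summed proliferation markers, in each genotype), 1 library lay apart, its gap to the nearest of the others being more than 0.71 of the group's range. A few such cases arise by chance, at about 5% of groups. In KO5 *Fancl* was at 90.1 CPM, with the nearest KO library at 101.1, and *Brca1* was at 37.56 CPM, with the nearest at 57.03. *Rad52* was at 69.17 CPM in KO1 and at most 42.31 in the other KO libraries. In WT3 *Xrcc6* was at 137.9 CPM, with the nearest WT library at 163.7. *Rad17* was at 58.86 CPM in WT1, with the nearest at 104.8. *Cited2* was at 120.1 CPM in KO3 and at most 8.296 CPM in the other KO libraries. The 5 member genes concern 4 different libraries, and none of these genes was called with or without the library named.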

How the results depend on the processing

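No member was called under any alternative run, the smallest adjusted p being 0.162 (*Xrcc3* without KO4). The other results moved as follows, and the cause was not tested. Members at an unadjusted p under 0.05 numbered 3 without a filter, 2 with the replicate block, 3 with the GC content and length offset, 3 with offset and block, and 2 to 6 with each library left out. In the same runs, the share of all tested genes at that level was 9.8%, 12.1%, 6.33%, 6.66% and 9.86% to 14.3%. Members without overlap numbered 0 without a filter and 0 to 3 with each library left out. The share of all tested genes without overlap in those runs is not given here, so these counts cannot be set against a background. The median log2 fold change was -0.01 with the offset (-0.005023) and -0.02 with offset and block (-0.019). Among the other pathway genes, 1 was called by DESeq2 and 1 at an adjusted p under 0.1. *Cited2* was at -3.99 with limma-voom (adjusted p = 0.0341) and at -4.92 to -2.23 with each library left out. With the offset, and with offset and block, signs turned for *Brip1* (-0.001884 and -0.008085), *Fancl* (-0.02527 and -0.01963), *Brca2* (-0.16 and -0.21), *Xrcc6* (0.05188 and 0.05409) and *Chek2* (-0.008904 and -0.01837). With single libraries left out, *Brca2* was at -0.08789 to 0.09949 and *Chek2* at -0.00596 to 0.1098. *Xist* as a covariate turned no sign among the 15 members given in full.

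Replicate numbers did not pair the libraries: correlations of same-numbered libraries ran from -0.08 to 0.19, and not every library correlated best with its own number. The replicate block turned no sign among those 15 and called 24 genes in place of 32. Counting error, as a coefficient of variation in WT, was largest for *Rad51c* (19.8%) and *Lig4* (17.8%). Their spread between libraries was larger, at 47.7% and 61.3% in WT and 71.6% and 66.9% in KO. The cause of that spread was not tested.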
